A study of Mus musculus with 12 samples.

Results

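Itch and the supply of nerve fibres to the skin were followed through 9 genes, read from the count table by their symbols. They were *Ntf3*, *Bdnf*, *Gdnf*, *Artn*, *Nrtn*, *Sema3a*, *F2rl1*, *Il31ra* and *Edn1*, and all 9 were found among the 21247 genes listed. RNA-seq had been performed on periocular skin biopsies of 6-week-old mice on a BALB/c background, and the values cover 4 libraries labelled ft/ft and 4 labelled ft/ftMyD88-/-. Both groups carry ft/ft, a filaggrin (*Flg*) point mutation that arose spontaneously and abolishes function, on a line freed of the ma mutation of *Tmem79*. The second group is also MyD88-/-, a deficiency of the adaptor of toll-like and IL-1 family receptors that the labels restrict to no cell type, and both groups had been kept free of specific pathogens. The 4 WT samples of the series and MyD88 deficiency on wild-type filaggrin were not analysed here, and no comparison with healthy skin was made.

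Sensory nerve endings in the skin come from cell bodies in ganglia outside it, and they depend on growth factors that skin cells release. Neurotrophins act through Trk receptors and p75NTR, while ligands of the GDNF family bind a GFR alpha co-receptor and signal through RET. Semaphorin 3A repels growing axons through neuropilin-1. Other skin signals cause itch directly, among them proteases that cleave PAR2 (*F2rl1*), IL-31 acting on its receptor chain *Il31ra* with *Osmr*, and endothelin-1 (*Edn1*). A biopsy samples the skin cells and the cut nerve ends, not the neuronal cell bodies, so transcripts of neuronal receptors can be scarce in it.

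The libraries labelled ft/ft held 18941705 to 29255129 counts and those labelled ft/ftMyD88-/- held 15802957 to 27037997. Levels are given as CPM, counts scaled to a common library size with edgeR's TMM method, whose factors were 0.922 to 0.954 in ft/ft and 1.04 to 1.09 in ft/ftMyD88-/-. The libraries labelled as knockouts were called higher, not lower, in *Myd88*, with 41.2 ± 7.29 CPM against 30.7 ± 4.74 (SD, n = 4 each, log2 fold change 0.42, adjusted p = 0.0484 by edgeR), so each direction below rests on the labels. *Flg*, mutated in both groups, was at 242 ± 39.5 CPM in ft/ftMyD88-/- and 103 ± 69.8 in ft/ft (adjusted p = 0.12 by edgeR). The series text gives all mice as female. *Xist*, the RNA of the inactive X chromosome, was at 34.6 to 66.8 CPM in ft/ftMyD88-/- and at no more than 1 count in ft/ft, and the Y-linked *Ddx3y* was at 54.2 to 73.2 CPM in ft/ft and at most 0.482 in ft/ftMyD88-/-. Genotype and sex therefore cannot be told apart in any difference given here.

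Of the 9 genes, 3 were lower in the libraries labelled ft/ftMyD88-/-, namely *Nrtn*, *Ntf3* and *Bdnf*, and 0 were higher, by edgeR's quasi-likelihood test at an adjusted p under 0.05. Across the 20454 genes tested, 23.3% passed that threshold and are spoken of as called, 12.3% as lower and 10.9% as higher, and 3 of 9 is not far from that background. Scaling by library size only, which moved the median log2 fold change of all genes by 0.177, called 4638 genes as higher and 1326 as lower, where the TMM fit called 2239 and 2525, and it left *Nrtn* alone called among the 9. All 9 genes passed the minimum of 10 counts summed over the libraries. The groups did not overlap in 3 of the 9, the same 3 genes, while 26.7% of all tested genes had no overlap. The median log2 fold change of the 9 was -0.63, beside 0.01 over all genes tested, and 6 of them had a value below 0. The comparison shows how these transcripts differed between the 2 labelled groups, and in whole skin fewer cells of a type and less RNA per cell cannot be told apart.

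**Figure D1:**
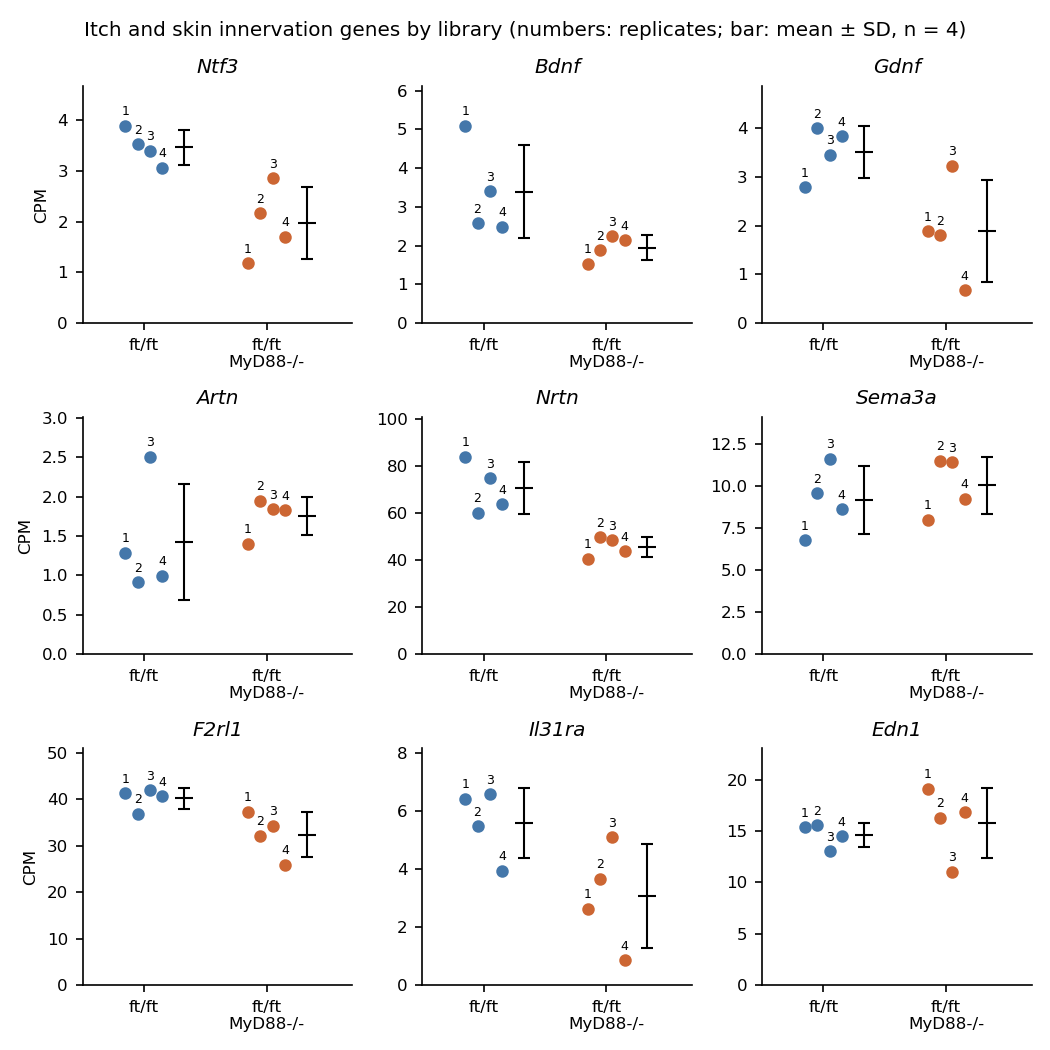
CPM (y axes, from 0) of each of the 9 genes in the 4 libraries labelled ft/ft (blue) and the 4 labelled ft/ftMyD88-/- (orange), with points numbered by replicate and bars giving the mean ± SD. *Ntf3*, *Bdnf* and *Nrtn* are separated between the groups, and ft/ftMyD88-/- replicate 4 is lowest for *Gdnf*, *F2rl1* and *Il31ra*.

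Windows around the annotated transcript starts of the 3 lower genes are shown because they are the regulatory sequence nearest to the measured difference. They come from RefSeq on GRCm38.p6, run from 250 bases before to 50 bases after a start, and are written 5′ to 3′ on the strand of the gene. The 9 genes had 16 such windows over 8 of them, and *F2rl1* had no window, so its start was not searched. Capitals mark matches on either strand to AP-1 (TGANTCA), the cAMP response element (TGACGTCA), NF-kappa B (GGG and TTTCC spaced by NN), STAT (TTCNNNGAA), the TATA box (TATAAA) or the CCAAT box (CCAAT). None of these matches overlapped another. *Nrtn* has 1 window, *Ntf3* has 2, and of the 7 windows of *Bdnf* only those with a match are printed.
Nrtn, chr17:56757499-56757798, minus strand: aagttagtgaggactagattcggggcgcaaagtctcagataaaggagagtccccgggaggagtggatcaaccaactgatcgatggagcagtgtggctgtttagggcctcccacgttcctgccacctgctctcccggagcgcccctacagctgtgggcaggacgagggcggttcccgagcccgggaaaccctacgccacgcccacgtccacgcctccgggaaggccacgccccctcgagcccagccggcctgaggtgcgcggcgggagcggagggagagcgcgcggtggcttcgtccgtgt
Ntf3 window 1, chr6:126166695-126166994, minus strand: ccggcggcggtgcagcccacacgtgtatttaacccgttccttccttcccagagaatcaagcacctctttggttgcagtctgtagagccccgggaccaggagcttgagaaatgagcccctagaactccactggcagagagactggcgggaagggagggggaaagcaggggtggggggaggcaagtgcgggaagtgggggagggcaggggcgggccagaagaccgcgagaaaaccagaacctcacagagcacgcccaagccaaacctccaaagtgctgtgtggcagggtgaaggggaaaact
Ntf3 window 2, chr6:126164911-126165210, minus strand: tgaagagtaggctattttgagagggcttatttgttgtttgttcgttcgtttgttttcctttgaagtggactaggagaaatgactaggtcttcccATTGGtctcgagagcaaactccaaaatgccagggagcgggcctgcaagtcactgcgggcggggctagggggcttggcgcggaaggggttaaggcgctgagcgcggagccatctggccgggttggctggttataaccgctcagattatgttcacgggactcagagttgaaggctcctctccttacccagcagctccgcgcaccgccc
Bdnf window 1, chr2:109674450-109674749, plus strand: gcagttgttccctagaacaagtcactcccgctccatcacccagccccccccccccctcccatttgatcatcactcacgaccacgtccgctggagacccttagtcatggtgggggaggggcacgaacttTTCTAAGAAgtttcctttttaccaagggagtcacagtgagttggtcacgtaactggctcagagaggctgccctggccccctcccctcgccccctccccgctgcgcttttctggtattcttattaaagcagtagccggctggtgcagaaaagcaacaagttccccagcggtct
Bdnf window 2, chr2:109676782-109677081, plus strand: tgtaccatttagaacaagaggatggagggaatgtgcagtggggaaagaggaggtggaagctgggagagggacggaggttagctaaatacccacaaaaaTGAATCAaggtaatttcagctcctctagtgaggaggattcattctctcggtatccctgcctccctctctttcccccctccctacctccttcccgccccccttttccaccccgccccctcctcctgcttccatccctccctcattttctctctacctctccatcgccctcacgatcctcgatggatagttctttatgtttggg

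The *Nrtn* window held none of the 6 motifs and was rich in G and C (66.7%, where the median of all windows was 52.7%). Window 2 of *Ntf3* held a CCAAT box, a motif found in 37.4% of the 32851 windows of all genes. For *Bdnf*, window 1 held a STAT match (8.30% of all windows) and window 2 an AP-1 match (7.81%), and the other 5 held none. Of the other genes, the 2 windows of *Gdnf* held a TATA box 31 bases before the start (13.6% of all windows hold one) and a CCAAT box, *Il31ra* held a STAT match and *Edn1* a CCAAT box. NF-kappa B letters (1.63% of all windows) and the cAMP response element (1.79%) were in none of the windows searched, which leave out *F2rl1*. Counts per gene do not tell which start was used, and a match is only a run of letters.

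Neurturin (*Nrtn*, chromosome 17, 56751325 to 56757530, minus strand, GRCm38) is the GDNF family ligand that supports unmyelinated sensory and parasympathetic fibres through GFR alpha 2. It was at 83.9, 60.0, 74.7 and 63.6 CPM in the 4 libraries labelled ft/ft and at 40.4, 49.6, 48.4 and 43.7 in those labelled ft/ftMyD88-/-. Every ft/ftMyD88-/- library lay below every ft/ft library. Means were 45.6 ± 4.26 CPM in ft/ftMyD88-/- (SD, n = 4) and 70.6 ± 10.9 in ft/ft, which differ by -0.63 on the log2 scale (standard error, SE, 0.115, and an adjusted p of 0.00253 by edgeR) or 35.4% lower. This call was kept in all 15 alternative fits, where the log2 fold change ran from -0.70 to -0.45.

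Neurotrophin-3 (*Ntf3*, chromosome 6, 126101412 to 126166910, minus strand) binds TrkC and sustains proprioceptive and touch fibres. It was at 3.90, 3.53, 3.40 and 3.07 CPM in ft/ft, from 61 to 97 counts a library. In ft/ftMyD88-/- it was at 1.18, 2.17, 2.86 and 1.71 CPM, from 27 to 84 counts, again without overlap. The log2 fold change was -0.79 (SE 0.243, and an adjusted p of 0.0336 by edgeR), which is 42.3% lower. Its spread in ft/ft was no larger than counting alone gives (chi-square of 0.839 per degree of freedom), and in ft/ftMyD88-/- it was 6.23 per degree of freedom. The call was lost when scaling used library size only (adjusted p = 0.0837) and whenever 1 library other than ft/ftMyD88-/- replicate 3 was left out of the edgeR fit (7 of 8 fits), with an adjusted p up to 0.0872. Only the fit without ft/ftMyD88-/- replicate 3, the highest library of its group, kept it, with a log2 fold change of -1.02 (adjusted p = 0.00976 by edgeR).

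Brain-derived neurotrophic factor (*Bdnf*, chromosome 2, 109674700 to 109727007, plus strand) acts through TrkB on touch-sensing fibres. Its CPM was 5.10, 2.58, 3.40 and 2.49 in ft/ft and 1.53, 1.87, 2.25 and 2.13 in ft/ftMyD88-/-. The groups did not overlap, but the lowest ft/ft library and the highest ft/ftMyD88-/- library lay close together. The log2 fold change was -0.80 (SE 0.251, and an adjusted p of 0.0384 by edgeR). Replicate 1 of ft/ft stood highest, and without it the log2 fold change was -0.53 and the edgeR adjusted p was 0.112. The call was also lost without ft/ft replicate 3 (adjusted p = 0.0746) and, in ft/ftMyD88-/-, without replicate 1 (0.0872), replicate 2 (0.0777) or replicate 4 (0.0681), all in edgeR, and with library size only (0.0825) and limma voom (0.0677). The exons of *Bdnf* share 896 of 6217 bases (14.4%) with *Gm45346*, an antisense gene, and the library kit named in the paper does not mark strand, so reads of the pair cannot be told apart there.

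Glial cell line-derived neurotrophic factor (*Gdnf*, chromosome 15, 7810846 to 7837575, plus strand), the founding ligand of its family, was at 2.79, 4.00, 3.46 and 3.83 CPM in ft/ft. In ft/ftMyD88-/- it was at 1.88, 1.80, 3.23 and 0.671 CPM, and replicate 4, with 11 counts, was the lowest library of all. Replicate 3 of ft/ftMyD88-/- overlapped the ft/ft range. The log2 fold change was -0.85 with a 95% interval of -1.59 to -0.12, and edgeR's adjusted p of 0.0863 missed the threshold. Intervals given here are for a single gene and are not adjusted for the number of genes. Without ft/ftMyD88-/- replicate 3 *Gdnf* was called, with a log2 fold change of -1.22 (adjusted p = 0.0146 by edgeR), and DESeq2 called it on all libraries (adjusted p = 0.0398).

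Artemin (*Artn*, chromosome 4, 117926162 to 117929763, minus strand) is the ligand of GFR alpha 3 on heat- and pain-sensing fibres. It was at 1.29, 0.909, 2.51 and 0.997 CPM in ft/ft and at 1.40, 1.95, 1.84 and 1.83 in ft/ftMyD88-/-. Replicate 3 of ft/ft, with 45 counts, was higher than every ft/ftMyD88-/- library, and the other 3 ft/ft libraries were lower than all of them. The log2 fold change was 0.33 (95% interval -0.34 to 1.01, adjusted p = 0.471 by edgeR), and without ft/ft replicate 3 it was 0.73 (adjusted p = 0.0626 by edgeR).

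**Figure D2:**
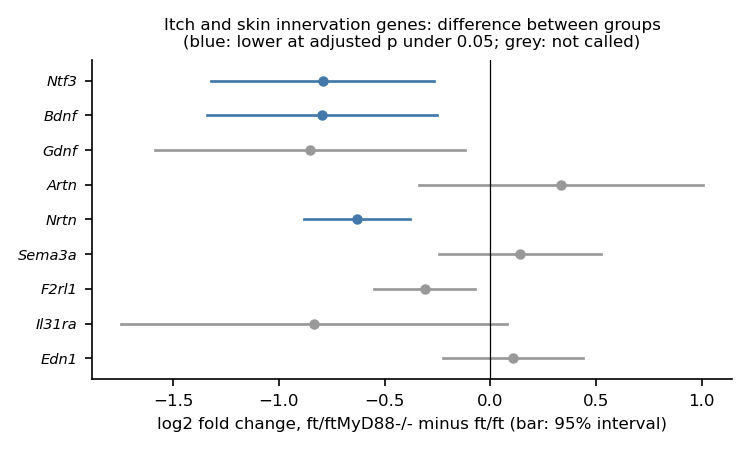
Log2 fold change of the 9 genes (points, x axis), libraries labelled ft/ftMyD88-/- minus those labelled ft/ft, with 95% intervals per gene as bars. *Nrtn* at -0.63, *Ntf3* at -0.79 and *Bdnf* at -0.80 (blue) passed an edgeR adjusted p of 0.05, and the other 6 (grey) did not.

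Semaphorin 3A (*Sema3a*, chromosome 5, 13125414 to 13602565, plus strand), the axon repellent of the epidermis, did not separate the groups. It was at 6.77, 9.60, 11.7 and 8.63 CPM in ft/ft and at 8.02, 11.5, 11.4 and 9.27 in ft/ftMyD88-/-. The difference was a log2 fold change of 0.14, with a 95% interval of -0.24 to 0.52 (adjusted p = 0.606 by edgeR).

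PAR2 (*F2rl1*, chromosome 13, 95511732 to 95525227, minus strand), the receptor that trypsin-like proteases cleave on keratinocytes and sensory endings, was at 41.4, 37.0, 42.1 and 40.8 CPM in ft/ft. Its values in ft/ftMyD88-/- were 37.3, 32.2, 34.3 and 26.0 CPM. Only replicate 1 of ft/ftMyD88-/- reached into the narrow ft/ft range. The log2 fold change of -0.31 (95% interval -0.55 to -0.07) missed the threshold with an edgeR adjusted p of 0.0594, and without that replicate it was -0.38 (adjusted p = 0.0306 by edgeR). With library size only the value was -0.13 (adjusted p = 0.421 by edgeR).

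The IL-31 receptor chain *Il31ra* (chromosome 13, 112519898 to 112594360, minus strand) was at 6.43, 5.49, 6.58 and 3.95 CPM in ft/ft and at 2.63, 3.67, 5.10 and 0.854 in ft/ftMyD88-/-. Replicate 4 of ft/ftMyD88-/- held 14 counts where the other 3 held 60 to 150, and the highest library of that group was 5.98 times the lowest. With that spread the log2 fold change of -0.83 had a 95% interval of -1.75 to 0.08 (adjusted p = 0.17 by edgeR). Without ft/ftMyD88-/- replicate 4 it was -0.55 (adjusted p = 0.159 by edgeR) and without replicate 3 it was -1.17 (adjusted p = 0.0536 by edgeR). A processed pseudogene, *Gm3226*, shares 45 exon bases with it.

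Endothelin-1 (*Edn1*, chromosome 13, 42301476 to 42307990, plus strand), a vasoconstrictor peptide that also evokes itch, was at 15.4, 15.6, 13.1 and 14.5 CPM in ft/ft. In ft/ftMyD88-/- it was at 19.1, 16.3, 11.1 and 16.8 CPM, which covered values below and above the whole ft/ft range. Between the groups the log2 fold change was 0.11 (95% interval -0.22 to 0.44, adjusted p = 0.65 by edgeR), an interval that includes changes in either direction. An antisense gene, *Gm47118*, shares 35 of its 2139 exon bases.

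Set per kilobase of exon (GENCODE M21 on GRCm38), the levels in ft/ft were 69.0 ± 10.7 CPM per kb for *Nrtn*, 14.7 ± 0.836 for *F2rl1*, 6.85 ± 0.541 for *Edn1* and 2.03 ± 0.201 for *Ntf3* (SD, n = 4). The other 5 followed between 0.546 ± 0.194 for *Bdnf* and 0.989 ± 0.213 for *Il31ra*, with *Gdnf*, *Sema3a* and *Artn* between them, and neighbours in that lower range lay within their spread. In ft/ftMyD88-/- the first 4 stood in the same order, at 44.5 ± 4.16, 11.8 ± 1.75, 7.40 ± 1.60 and 1.15 ± 0.415 CPM per kb, and *Bdnf* was again lowest at 0.313 ± 0.0509. *Nrtn* was the most abundant of the 9 per kilobase in both groups, and also by CPM alone. The lengths take in every annotated exon base of a gene, over 1 transcript for *Nrtn* and 11 for *Bdnf*. The order of the other genes therefore depends on the annotation, and whether counts scaled with length in these libraries was not tested.

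**Figure D3:**
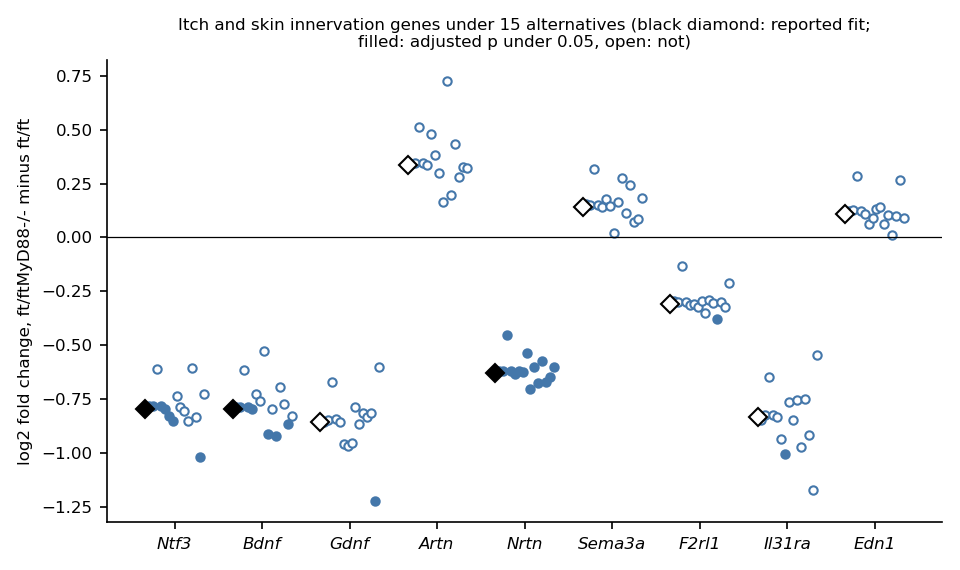
Log2 fold change (y axis) of the 9 genes in the reported fit (black diamonds) and in 15 alternatives (circles), filled where the adjusted p was under 0.05. *Nrtn* is filled throughout, while 8 of the 15 circles are open for *Ntf3* and 8 for *Bdnf*.

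The other genes of these pathways were taken from fixed lists. Of 76 such genes, 67 were in the table and 66 were tested, of which 16 were higher, 8 were lower and 42 were not called, with a median log2 fold change of 0.09. Over all tested genes 10.9% were higher and 12.3% lower, and that background applies to each list below. The lists were chosen with earlier results of these data known, and no list was tested as a set. *Il31*, *Trpa1*, *Scn9a*, *Scn10a*, *Mrgpra3*, *Mrgprd*, *Oprk1*, *Grp* and *Ece2* were not found in the table under these symbols, so they could not be analysed here.

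Of the relatives of *Ntf3* and *Bdnf*, *Ntf5* (neurotrophin-4/5) had a log2 fold change of 0.09 (adjusted p = 0.723 by edgeR). *Sort1* (sortilin, which binds proneurotrophins) was lower, at 169 ± 24.3 CPM in ft/ftMyD88-/- and 243 ± 13.3 in ft/ft (log2 fold change -0.52, adjusted p = 0.00434 by edgeR). The receptors of *Bdnf* and *Ntf3* were not called, with log2 fold changes of -0.33 for *Ntrk2* (TrkB, adjusted p = 0.09 by edgeR) and -0.29 for *Ntrk3* (TrkC, 0.252), nor was *Ngfr* (p75NTR) at -0.35 (0.108).

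Of the GDNF family receptors, *Gfra2*, the co-receptor of neurturin, was higher while its ligand was lower. It was at 17.9 ± 1.97 CPM in ft/ftMyD88-/- and 13.2 ± 1.55 in ft/ft (SE 0.121 around a log2 fold change of 0.44, adjusted p = 0.021 by edgeR), without overlap. Leaving out ft/ft replicate 1 or 3 ended that call, with values of 0.39 (adjusted p = 0.0521 by edgeR) and 0.40 (0.0598), and so did a fit with a replicate block (0.0512). A ratio of counts within a library does not depend on the scaling. That of *Gfra2* to *Nrtn*, chosen after values had been seen and without a test, was 0.142, 0.224, 0.163 and 0.241 in ft/ft and 0.472, 0.334, 0.415 and 0.365 in ft/ftMyD88-/-. Each gene was already without overlap, in opposite directions, so this ratio could not overlap either and adds no support. *Gfra3*, the co-receptor of artemin, had a log2 fold change of 0.46 (adjusted p = 0.105 by edgeR), *Gfra1*, that of GDNF, -0.29 (0.23), and *Ret*, which signals for them all, 0.30 (0.183). With library size only, *Gfra3* (0.64, adjusted p = 0.0299 by edgeR) and *Ret* (0.48, 0.039) were called higher. The remaining 2 receptors, *Gfra4* and *Ncam1*, and the ligand *Pspn* were not called.

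While *Sema3a* did not separate the groups, 4 of the 7 class 3 semaphorins were lower in ft/ftMyD88-/- and none was higher. *Sema3d* fell most, from 103 ± 10.6 to 31.4 ± 11.9 CPM (log2 fold change -1.71, adjusted p = 0.00117 by edgeR). *Sema3b* (log2 fold change -1.03, adjusted p = 0.00365 by edgeR), *Sema3e* (-0.63, 0.00628) and *Sema3c* (-0.48, 0.0399) followed, and *Sema3c* kept its call only without ft/ft replicate 2 or ft/ftMyD88-/- replicate 3 among the fits that dropped a single library (adjusted p up to 0.106 in the others). Library size only also ended it, at -0.30 (adjusted p = 0.184 by edgeR). None of the 7 neuropilin and plexin receptors was called, though library size only called *Nrp2* (0.47), *Plxna1* (0.50) and *Plxna2* (0.63) as higher, with *Nrp1*, the binding receptor of semaphorin 3A, at a log2 fold change of -0.23 (adjusted p = 0.286 by edgeR).

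None of the 4 protease-activated receptors was called. Among 7 proteases known to act on PAR2, the kallikrein *Klk5* was lower, at 90.6 ± 18.6 against 161 ± 16.2 CPM (log2 fold change -0.83, adjusted p = 0.00116 by edgeR), as was the membrane protease *Prss8* (log2 fold change -0.58, adjusted p = 0.00606 by edgeR). The kallikrein *Klk6* was higher, at 210.1 ± 59.8 against 87.4 ± 39.9 CPM with overlapping libraries (log2 fold change 1.26, adjusted p = 0.0431 by edgeR), a call kept only without ft/ft replicate 2 or ft/ftMyD88-/- replicate 3 when each library was left out (adjusted p up to 0.103 in the others).

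*Osmr*, the partner chain of *Il31ra* and also the receptor of oncostatin M, was at 42.0 ± 7.05 CPM in ft/ftMyD88-/- and 30.4 ± 3.94 in ft/ft (log2 fold change 0.47, adjusted p = 0.0209 by edgeR). Its call was lost without ft/ft replicate 1, 3 or 4 or ft/ftMyD88-/- replicate 2 (edgeR adjusted p up to 0.0627). Oncostatin M itself (*Osm*) was counted 4, 18, 1 and 2 times in ft/ft libraries and 18, 61, 35 and 23 times in ft/ftMyD88-/- libraries (SE 0.584 around a log2 fold change of 2.44, adjusted p = 0.0122 by edgeR), and without ft/ft replicate 2, its highest ft/ft library, the value was 3.70. The 2 chains of the IL-31 receptor thus had fold changes of opposite sign, of which only that of *Osmr* passed the test.

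Among the endothelins, *Edn2* was higher (2.82 ± 0.643 against 1.56 ± 0.303 CPM, log2 fold change 0.85, adjusted p = 0.0194 by edgeR) and *Edn3*, which also supports melanocytes, was lower (5.97 ± 0.346 against 11.0 ± 2.83 CPM, log2 fold change -0.88, adjusted p = 0.00354 by edgeR). *Edn2* lost its call without ft/ftMyD88-/- replicate 4, at 0.73 (adjusted p = 0.0569 by edgeR). Of the endothelin receptors, *Ednrb* was at 61.0 ± 13.7 CPM in ft/ftMyD88-/- and 34.0 ± 4.16 in ft/ft (log2 fold change 0.85, adjusted p = 0.00214 by edgeR), without overlap. *Ednra*, through which endothelin-1 evokes itch, had a log2 fold change of -0.03 (95% interval -0.37 to 0.32, adjusted p = 0.916 by edgeR). *Ece1*, the enzyme that releases active endothelin, was also higher (log2 fold change 0.42, adjusted p = 0.0384 by edgeR), a call lost without ft/ft replicate 1, 3 or 4 or ft/ftMyD88-/- replicate 1 or 2 (edgeR adjusted p up to 0.103).

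**Figure D4:**
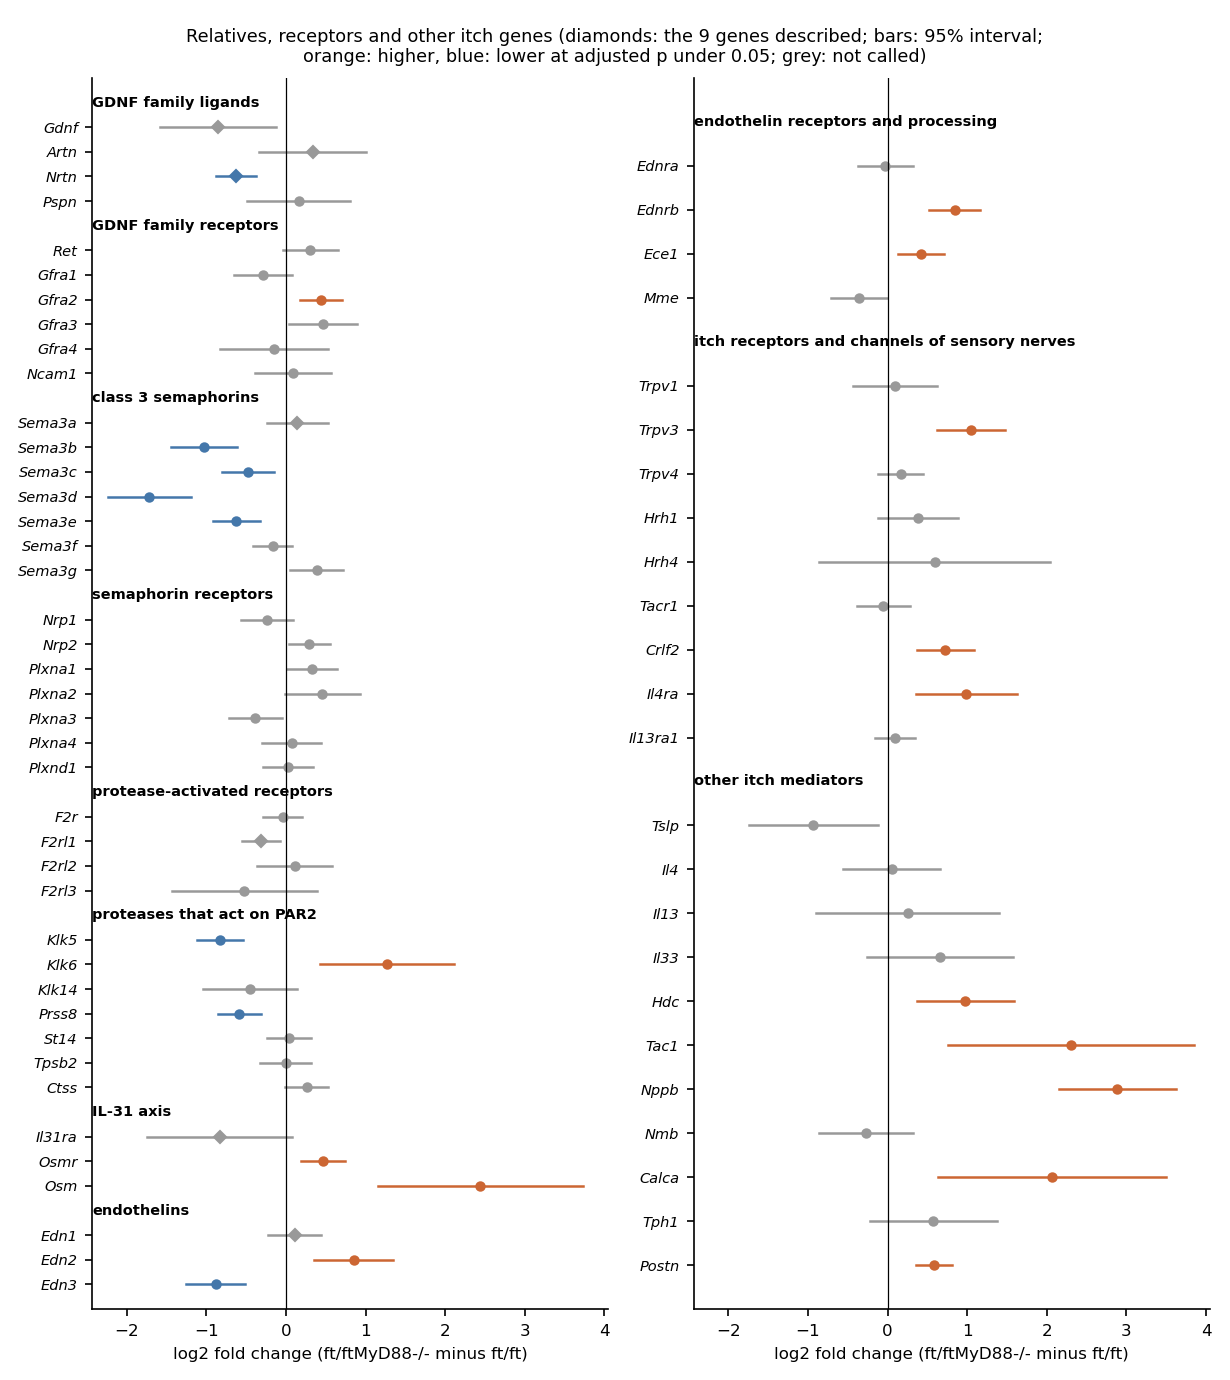
Log2 fold change (x axes, ft/ftMyD88-/- minus ft/ft) of the tested genes of each list but the neurotrophins and their receptors, with 95% intervals per gene as bars and those of the 9 genes in these lists drawn as diamonds. Class 3 semaphorins lie mostly to the left, with *Sema3d* at -1.71, and several itch mediators lie to the right, with *Nppb* at 2.89.

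Of 9 tested itch receptors and channels, *Trpv3* (a warmth-sensing channel of keratinocytes) was higher (29.0 ± 6.78 against 14.0 ± 3.35 CPM, log2 fold change 1.05, adjusted p = 0.00362 by edgeR). *Il4ra* (log2 fold change 0.99, adjusted p = 0.0354 by edgeR) and *Crlf2*, the TSLP receptor (0.73, 0.00796), were higher as well, and the call of *Il4ra* was kept only without ft/ftMyD88-/- replicate 2 or 3 when each library was left out (adjusted p up to 0.0919 in the others). The other 6 were not called. Of 11 tested itch mediators, 5 were higher and none was lower. *Nppb*, a natriuretic peptide that relays itch, was counted 11, 25, 6 and 15 times in ft/ft libraries and 103, 94, 87 and 112 times in ft/ftMyD88-/- libraries (SE 0.337 around a log2 fold change of 2.89, adjusted p = 1.92e-04 by edgeR). *Postn* (periostin, log2 fold change 0.58, adjusted p = 0.00246 by edgeR), *Hdc*, the histamine-forming enzyme (0.98, 0.0255), *Tac1*, which encodes substance P (2.30, 0.037), and *Calca*, which encodes CGRP (2.07, 0.04), were the others. *Calca* held 11 counts or fewer in every library, and *Hdc*, *Tac1* and *Calca* kept their calls without ft/ft replicate 2 or ft/ftMyD88-/- replicate 3, and *Hdc* and *Tac1* also without ft/ftMyD88-/- replicate 1, while leaving out any other library ended them (edgeR adjusted p up to 0.0668, 0.109 and 0.0986). Limma voom also ended the call of *Tac1* (1.95, adjusted p = 0.124) and a replicate block in edgeR that of *Calca* (adjusted p = 0.0635). *Tac1* was at a log2 fold change of 1.57 without ft/ftMyD88-/- replicate 2, its highest library.

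Markers of cells that the biopsies could hold also differed between the groups in several lists, where 23.3% of all tested genes were called. Their part in the differences above was not tested. Axon markers were called higher in 1 of 7 (*Tubb3*) and lower in none, with a summed level of 18.3 to 21.8 CPM in ft/ft and 26.9 to 38.3 in ft/ftMyD88-/-. That separation came from *Tubb3*, since the sum of the other 6, taken after the values had been seen, was 12.3 to 17.8 CPM in ft/ft and 9.33 to 15.5 in ft/ftMyD88-/-, and the median log2 fold change of the 7 was -0.17. Schwann cell markers were lower in 5 of 9, with 873 to 1005 CPM against 529 to 725. Skeletal muscle was lower in 7 of 8 (8205 to 11208 against 3240 to 6138 CPM), fibroblast in 3 of 7 (14283 to 29383 against 7198 to 10677), endothelium in 3 of 8 (298 to 361 against 221 to 292) and basal keratinocyte in 4 of 6 (13887 to 16999 against 9740 to 11940). The 3 called fibroblast markers were the collagen genes *Col1a1*, *Col1a2* and *Col3a1*, while 3 of the 7 had a log2 fold change above 0. These collagen genes were at 732, 486 and 772 CPM per kb in ft/ft and 242, 172 and 360 in ft/ftMyD88-/-. The fibroblast sum therefore does not stand for all 7 markers. Differentiated keratinocyte markers were lower in 3 of 5 (15834 to 20774 against 11436 to 14185) and sebocyte markers in 5 of 8 (19720 to 22591 against 11869 to 17501). Of the 5 called sebocyte markers, *Scd1* was by far the most abundant, at 2820 CPM per kb in ft/ft and 1791 in ft/ftMyD88-/-. As 1 of the 8 had a log2 fold change above 0, the sebocyte sum does not stand for all 8 markers. Leukocyte markers were higher in 3 of 8 (424 to 524 against 597 to 860), hyperproliferative keratinocyte in 1 of 5 (2794 to 3605 against 3283 to 5627), anagen hair follicle in 3 of 7 (1153 to 1853 against 1526 to 9496) and smooth muscle in 1 of 4 (159 to 326 against 266 to 343). The 3 called leukocyte markers were *Ptprc*, *Cd3e* and *Lyz2*, and only 4 of the 8 had a log2 fold change above 0. *Lyz2* was by far the most abundant of these 3, at 197 CPM per kb in ft/ft and 391 in ft/ftMyD88-/-. The leukocyte sum therefore does not stand for all 8 markers. Merkel cell markers were lower in 1 of 6 (19.9 to 30.8 against 22.1 to 31.3) and mast cell markers were called in 0 of 5 (109 to 138 against 103 to 170.2). No listed marker in the table was at 0 in every library.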

How the data were processed

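RNA-seq libraries of periocular skin were compared between 4 samples labelled ft/ft and 4 labelled ft/ftMyD88-/-, grouped by their titles. The paper counts 4 mice per group, and the labels do not tie libraries to mice. The values deposited by the authors were raw counts per gene. By the paper's methods, HISAT and tophat2 placed the reads on GRCm38.p6, and HTSeq is named, with default parameters, for the step that compared the groups. How the count table itself was made is not described further, and tool versions are not given in the sources used here. Those methods state TruSeq libraries with polyA selection, which differs from the sample labels, where Cell Ranger, total RNA and a fixed-tissue protocol are named.

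A gene entered the test when its 8 libraries together held 10 counts or more. edgeR 4.0.16 was run under R 4.3.3 (TMM, robust glmQLFit, glmQLFTest, two-sided, no covariate), with Benjamini-Hochberg adjustment over all tested genes at 0.05. Standard errors came from the log2 fold change and F, and 95% intervals from these and the test's degrees of freedom. Replicates differed by more than counting noise (chi-square of at least 16.2 per degree of freedom in every pair). On simulated data for this comparison (20454 genes drawn, 20193 tested, 200 changed 4-fold), 196 were recovered with 14 false calls. Alternatives were DESeq2 1.42.0, limma 3.58.1 voom, RLE, library size only, filterByExpr, no filter, a replicate block, each library left out and a log2 fold change of at least 1.

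Named were the 9 genes, every gene of the pathway lists at an adjusted p under 0.05, chosen receptors and ligands whatever their p, and 4 label checks. *Gfra4*, *Ncam1*, *Pspn*, *Ntf5*, *Nrp2*, *Plxna1*, *Plxna2* and *Tubb3* were named after their values were seen. So were the markers *Ptprc*, *Cd3e*, *Lyz2*, *Col1a1*, *Col1a2*, *Col3a1* and *Scd1*. The members and lists were chosen with earlier results of these data known. Exon lengths and positions are GENCODE M21's, promoter windows RefSeq's. No column was left unused. Results of some listed genes are not reported here.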

Additional observations from a re-analysis of the deposited data

Results flagged for a closer look

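Among 75 genes of the lists, each group of 4 libraries was searched for a library far from the other 3 by Dixon's ratio, over 150 groups in all. Chance flags about 1 in 20 groups, and 5 were flagged, none of them among the 9 genes described. The semaphorin receptor *Nrp2* had 63.3 CPM in replicate 1 of ft/ft, where the others had 82.4 to 84.1. *Tslp* was at 0.953 CPM (28 counts) in ft/ftMyD88-/- replicate 3 and at 0.305 to 0.404 in the remaining ones. *Il13* was at 0.661 CPM (18 counts) in ft/ftMyD88-/- replicate 2 and at 0.204 to 0.244 in the others. *Pspn* was at 1.28 CPM (21 counts) in ft/ftMyD88-/- replicate 4 and at 0.701 to 0.735 in the others. *Hrh4* had 0 counts, or 0 CPM, in ft/ftMyD88-/- replicate 4, which allows up to 0.183 CPM at 3 counts (counting error only), and was at 0.184 to 0.219 CPM in the others.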

How the results depend on the processing

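The 15 alternatives gave 135 values for the 9 genes, of which 115 kept direction and side of the threshold, and no value of the 9 changed sign. With library size only, *Ntf3* (log2 fold change -0.61) and *Bdnf* (-0.61) were no longer called, nor was *Bdnf* with limma voom (-0.73), while *Gdnf* was called by DESeq2 (-0.86). Leaving out each library gave -1.02 to -0.61 for *Ntf3*, -0.92 to -0.53 for *Bdnf*, -1.22 to -0.60 for *Gdnf* and -0.38 to -0.21 for *F2rl1*. The genes called lower among the 9 numbered 1 to 4 in those fits, 1 with library size only and 0 when a log2 fold change beyond 1 was also asked for. Other listed genes called higher numbered 7 to 16, and all genes called higher 1464 to 2260. With library size only 4638 genes were higher and 1326 lower, and at the fold minimum 752 and 520.

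Same-numbered libraries did not deviate together (r = -0.349, 0.0381, 0.0719 and -0.0298), so the numbers were not taken as pairs. With a replicate block *Bdnf* was at -0.76 (edgeR adjusted p = 0.068) and not called, *Il31ra* at -1.005 (0.0276) and called, and 3 of the 9 were called lower. The block also ended the calls of *Gfra2* (0.44) and *Calca* (2.12), library size only that of *Sema3c* (-0.30), and limma voom that of *Tac1* (1.95). The cause of these changes was not tested, beyond the smaller number of samples in the fits that leave one out.

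Uncalled genes near 0 changed sign in some settings. With library size only, the log2 fold change was 0.15 for *Ednra*, 0.14 for *F2r*, 0.028 for *Gfra4*, 0.0068 for *Sema3f*, 0.13 for *Tacr1* and 0.18 for *Tpsb2*. It was 0.022 for *Ednra* under limma voom, 0.0095 for *Tpsb2* under DESeq2, 0.0090 for *Tpsb2* under RLE, 0.0082 for *Tpsb2* under filterByExpr and 0.0063 for *Tpsb2* under limma voom. Leaving out each library gave -0.16 to 0.13 for *Ednra*, -0.10 to 0.046 for *F2r*, -0.022 to 0.19 for *F2rl2*, -0.37 to 0.021 for *Gfra4*, -0.36 to 0.69 for *Il13*, -0.057 to 0.22 for *Il4*, -0.063 to 0.21 for *Ncam1*, -0.0088 to 0.18 for *Ntf5*, -0.066 to 0.15 for *Plxna4*, -0.092 to 0.12 for *Plxnd1*, -0.058 to 0.25 for *Pspn*, -0.11 to 0.13 for *St14*, -0.16 to 0.014 for *Tacr1*, -0.097 to 0.11 for *Tpsb2* and -0.024 to 0.19 for *Trpv1*. Genes with few counts, such as *Osm*, *Tac1* and *Calca*, are limited by depth, with 3 counts worth 0.102 to 0.183 CPM.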

Other observations

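Within ft/ftMyD88-/-, replicate 3 had the highest CPM of 4 of the 9 genes (*Ntf3*, *Bdnf*, *Gdnf* and *Il31ra*) and replicate 1 the lowest of 5. Replicate 4 was the lowest for 3 (*Gdnf*, *F2rl1* and *Il31ra*) and the highest for 0 of the 9. The summed level of anagen hair follicle markers was 9496, 1526, 2327 and 5640 CPM in replicates 1 to 4 of that group, and that of skeletal muscle markers was 3240, 4862, 6138 and 4375 CPM. Whether either moves with the 9 genes was not tested, as 4 libraries are too few.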
